A study of Mus musculus with 2 samples.

Results

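*Eomes*-expressing cells of the embryonic mouse brain were taken as the segmented cells of 2 MERFISH sections that held at least 20 panel transcripts, at least 2 *Eomes* transcripts and fewer than 2 transcripts of *Gad1* and *Gad2* together. They were thus selected on their measured *Eomes*, *Gad1* and *Gad2* counts. The rule found 2435 such cells, called *Eomes*+ cells here, of 156481 cells with at least 20 transcripts and of 218537 segmented cells in all. Of these, 2368 lay in the *Dnmt1* knockout (KO) section and 67 in the control section. MERFISH reads single RNA molecules in tissue as fluorescent barcodes, here for 500 genes and 50 blank barcodes that code for no gene. The levels of the 3 genes in the rule are no finding.

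Each group was 1 coronal section, 10 µm thick, of a fresh-frozen head at E16.5. The control was *Sst-Cre/tdTomato* and the KO was *Sst-Cre/tdTomato/Dnmt1 loxP2*, so both carried the Cre driver and the tdTomato reporter and the KO alone carried the loxP-flanked *Dnmt1* alleles. Both came from a cross of an *Sst* Cre line with a B6 *ROSA26* tdTomato line, which for the KO was crossed further with a B6;129S *Dnmt1* line. Cre was driven from the *Sst* locus, which is active in somatostatin interneurons, so the deletion was not aimed at the *Eomes*+ cells themselves. 1 animal was used per genotype, and its sex and litter were not given in the sources used here. With 1 section per group no test was run, and run and genotype cannot be told apart.

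The developing cortex is built from the ventricle outward. Radial glia divide at the ventricular surface, and many of their daughters become intermediate progenitors, which express the T-box transcription factor gene *Eomes* (also called Tbr2), divide in the subventricular zone and give rise to glutamatergic projection neurons. Newborn neurons then switch off *Eomes*, move through the intermediate zone and settle in the cortical plate, where genes such as *Tbr1* mark deep-layer projection neurons.

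The sections differed in depth: cells of the control held a median of 20 transcripts and those of the KO 101, and no cell identifier was shared between them. The pallial region, which holds the developing cortex, was outlined by script from 5 pallial and 12 subpallial genes without *Eomes*, *Gad1* or *Gad2*. Its area was 4.22 mm² (control) and 4.01 mm² (KO). It held 16920 control cells (47.0% of those segmented there) and 34200 KO cells (96.1%) with at least 20 transcripts, and these had a median of 33 and 103 transcripts. All intervals given below are 95% intervals, exact Poisson for counts and Clopper-Pearson for shares, and cover counting error only.

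The name intermediate progenitor could be checked only in part. Of 8 marker genes listed for these cells, *Eomes* and *Sstr2*, a somatostatin receptor gene, were among the genes counted. This is fewer than the 3 markers needed for a cell type name, so the cells are called by the gene that chose them. *Sstr2* was counted at 24692 CPM (counts per 1000000 panel transcripts, *Eomes*, *Gad1* and *Gad2* left out) in pallial *Eomes*+ cells of the KO section and at 6537 CPM in pallial cells with no *Eomes*. The log2 ratio was 1.92, and 0.74, below 2-fold, when the comparison cells were matched for depth in the tissue. Of 10 radial glial genes 9 were at least 2-fold higher in these *Eomes*+ cells than in pallial cells with no *Eomes*, beside 18.1% of all genes compared. At matched depth 8 of 10 were, beside 9.24%. The markers on the panel were too few to name single cells as intermediate progenitors. For radial glia 10 genes were counted, but transcripts of a neighbour can be counted in a cell. Single cells were therefore not named as radial glia either. Sums over the cells are set against cells with radial glial genes and no *Eomes* below.

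Most KO *Eomes*+ cells sat close to the threshold. In the KO section 1087 cells had exactly 2 *Eomes* transcripts, 523 had 3, 324 had 4, 42 had at least 10 and the others 5 to 9, with a highest count of 27. Just outside the rule lay 3205 KO cells with 1 *Eomes* transcript. In the control section 60 of the 67 cells had 2 transcripts, 6 had 3, 1 had 4, and 723 cells had 1. The limit on *Gad1* and *Gad2*, genes of the GABA-making enzymes, removed 192 KO cells (7.50% of those with at least 2 *Eomes*) and 1 control cell. Of the removed KO cells 60.4% (53.1 to 67.4) lay in the pallial region. Among the KO *Eomes*+ cells 2131 had no *Gad1* or *Gad2* transcript and 237 had 1.

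The rule was also applied to cells with markers of types in which *Eomes* is not looked for, microglia and endothelium. Whether their *Eomes* counts came from segmentation, from merged or overlapping cells or from marker transcripts of neighbours was not tested. In the KO pallial region 36 of 655 cells with at least 3 microglial transcripts (*Csf1r*, *Cx3cr1* and *C1qa*) met the rule, or 5.50% (3.88 to 7.53), beside 6.48% (6.22 to 6.75) of all pallial cells. The microglial marker cells were deeper, with a median of 146 transcripts against 103. Within 240 µm of the ventricular edge the rule was met by 14.4% (13.8 to 15.0) of cells without microglial or endothelial markers, by 12.1% (8.38 to 16.7) of microglial marker cells and by 9.29% (7.09 to 11.9) of endothelial marker cells. With at least 10 marker transcripts these shares were 8.99% (3.96 to 16.9) and 5.54% (3.13 to 8.96). The intervals of the microglial shares overlap that of the other cells there at the lower minimum and at the higher one, while the endothelial ones lie below it, and both types were deeper.

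The level of *Eomes* per transcript did differ between them. Within 240 µm it was 5124 CPM (5019 to 5229.5) in cells without such markers, 2997 CPM (2515 to 3546) in microglial marker cells and 3262 CPM (2927 to 3625) in endothelial marker cells. In cells with at least 10 microglial transcripts, *Eomes* stood at 48.7% of its level in the other cells, *Tbr1* at 52.9%, *Sox9* at 62.5%, *Sstr2* at 42.6% and *Unc5d* at 31.1%. In cells with at least 10 endothelial transcripts *Eomes* stood at 43.5%, *Tbr1* at 34.8%, *Sox9* at 44.3%, *Sstr2* at 18.8% and *Unc5d* at 19.5%. Cortical genes were thus counted in cells with markers of other types, at a share that differed between genes and types. Most values below are therefore sums over many cells, and a single cell in which 2 genes were counted is not read as expressing both. How much of each value came from neighbours was not tested. Of the 2216 pallial *Eomes*+ cells in the KO section 95 carried at least 3 microglial or at least 3 endothelial transcripts. Blank barcodes gave far fewer such cells: at least 2 counts of 1 blank were found in a median of 0.0113% of pallial KO cells, and in 0.129% for the highest blank.

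*Eomes*+ cells formed a continuous band along the lateral ventricle in both hemispheres of the KO section. Of the 2368 cells 2216 (93.6%; 92.5 to 94.5) lay in the pallial region, and so did 64 of the 67 control cells (95.5%; 87.5 to 99.1). Of the 152 KO cells outside it, 110 were within 100 µm of the region. The other 42 were scattered ventrally, and 29 of these had exactly 2 *Eomes* transcripts. The outline settings had been adjusted after the sections were seen, to take in the ventricular zone and leave out a ventral island. The shares inside and outside the region are therefore not independent of that choice.

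**Figure D1:**
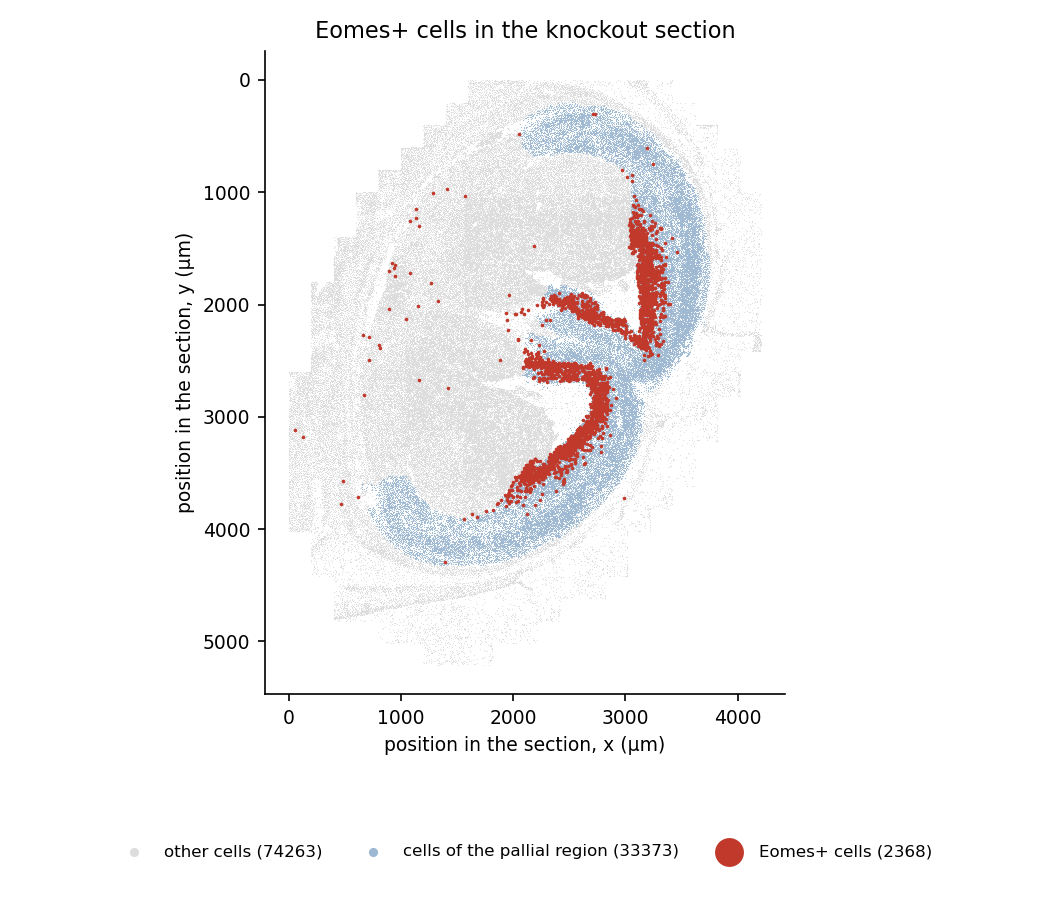
Position of every segmented cell in the knockout section, with x and y in µm. Red points are the 2368 *Eomes*+ cells, blue points are other cells of the pallial region and grey points are all remaining cells. The red cells form a band along the inner edge of the pallium in both hemispheres, with few cells elsewhere.

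Within the pallial region the band lay next to, not at, the ventricular edge. Laterally the edge so called borders the subpallium, so the zones measured from it also hold lateral pallium. In the KO section *Eomes*+ cells made up 11.7% (10.5 to 13.02) of the cells within 60 µm of that edge, 19.7% (18.5 to 20.9) at 60 to 120 µm, 16.4% (15.3 to 17.6) at 120 to 180 µm and 8.05% (7.24 to 8.92) at 180 to 240 µm. Beyond 300 µm their share was 0.214% (0.147 to 0.3001). In 1 hemisphere the share at 60 to 120 µm was 22.5% (20.6 to 24.4), above the 17.7% (16.0 to 19.4) at 120 to 180 µm. In the other it was 17.2% (15.6 to 18.8) beside 15.2% (13.7 to 16.8), so these zones could not be told apart there, and both were above the 10.4% (8.85 to 12.1) within 60 µm. Median transcripts per cell were between 100 and 114 in each of these zones.

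The median KO *Eomes*+ cell lay 119 µm (116 to 123) from the ventricular edge, and the middle 80% lay between 51.4 and 208.7 µm. Pallial cells with no *Eomes* had a median of 311 µm (308 to 314). The 2471 pallial cells with 1 *Eomes* transcript lay at 143 µm (139 to 147). On a relative scale from 0 at the pial to 1 at the ventricular edge, the median *Eomes*+ cell was at 0.78, and at 0.74 and 0.80 in the separate hemispheres. The hemispheres therefore differed by more than counting error in relative depth, while their distances in µm were 117 and 122.

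The control section showed the band at lower counts. Its shares were 0.405% (0.149 to 0.879) within 60 µm, 0.879% (0.522 to 1.39) at 60 to 120 µm, 1.04% (0.648 to 1.59) at 120 to 180 µm and 0.636% (0.339 to 1.09) at 180 to 240 µm. The intervals of these 4 zones overlap, so no peak can be placed. Beyond 300 µm, 1 of 7343 cells met the rule. The median control cell lay at 143 µm (119 to 166), and at a relative depth of 0.76 (0.71 to 0.80).

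**Figure D2:**
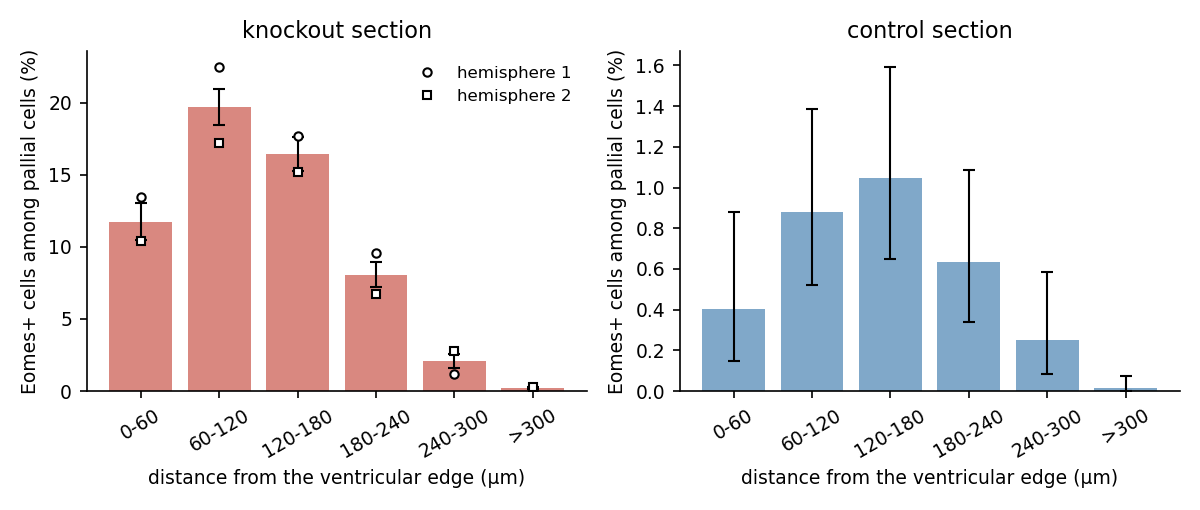
Share of *Eomes*+ cells among pallial cells with at least 20 transcripts, in %, by distance from the ventricular edge in µm, for the KO section (left) and the control section (right) on separate scales. Bars are both hemispheres together, error bars are Clopper-Pearson 95% intervals, and open symbols are the hemispheres of the KO section. The KO share was 22.5% and 17.2% in the hemispheres at 60 to 120 µm, and in the second of these the interval overlaps that at 120 to 180 µm.

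Along the cortex, the hemispheres differed near the line drawn between them. Within 250 µm of it *Eomes*+ cells made up 17.8% (16.3 to 19.4) of KO pallial cells in 1 hemisphere and 0.385% (0.185 to 0.708) in the other. The line is a mirror line fitted to the outline and not an anatomical midline, so these zones may not hold the same tissue on either side. In the next 4 zones of 250 µm the shares were between 8.85% and 13.9% in both hemispheres. Farther out, in the lateral pallium, 108 of 14621 cells met the rule (0.739%; 0.606 to 0.891).

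The nearest cells of *Eomes*+ cells were more often *Eomes*+ than all pallial cells at the same depths. Among the 5 nearest cells of KO pallial *Eomes*+ cells, 35.6% were *Eomes*+ themselves, against 14.0% of pallial cells at the same depths. The hemispheres gave 36.4% and 34.8%, against 13.2% and 15.6%. The share at the same depths covers the whole length of the cortex, including the lateral pallium and the zone near the dividing line of 1 hemisphere, where *Eomes*+ cells were few. How much of the difference came from position along the cortex, or from transcripts of 1 cell counted in the next, was not tested. In the control section 10 of 320 nearest cells (3.13%) were *Eomes*+, against 0.931% at the same depths, and all 10 were in 1 hemisphere.

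The share of *Eomes*+ cells differed widely between the sections, and so did depth. As deposited, 6.48% of KO and 0.378% (0.291 to 0.483) of control pallial cells met the rule, a log2 ratio of 4.10 (3.69 to 4.53). This ratio depended on the rule, at 2.10 (1.94 to 2.26) with a minimum of 1 *Eomes* transcript and 6.41 (5.29 to 7.81) with a minimum of 3. When 21.4% of KO transcripts were kept at random, which gives the control's mean per cell, a median of 293 pallial *Eomes*+ cells remained over 10 draws (266 to 322). Their share was then 1.51% (1.38 to 1.66 over the draws), and the log2 ratio of the first draw was 2.01, with 1.86 to 2.13 over all draws. The ratio was thus smaller at an equal mean per cell. The spread of depth over cells was not matched, since 19309 to 19495 thinned KO pallial cells still held at least 20 transcripts, against 16920 in the control. What remains cannot be told apart from differences of run, animal or section plane. The comparisons that follow are within the KO section, and the control is given at the end.

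To ask how pallial *Eomes*+ cells differed from the cells around them, the 2216 cells were first set against the 26353 pallial cells with no *Eomes* and fewer than 2 *Gad1* and *Gad2* transcripts. Genes at or above the panel median were compared, and those past 2-fold were counted. Of 249 genes 45 (18.1%) were at least 2-fold higher in *Eomes*+ cells and 105 (42.2%) at least 2-fold lower, with a median log2 ratio of −0.74 over all 249. Of these genes 72 were, in 1 of the groups, under 286 CPM, the lowest mean that passed, so they entered through their level in the other group and had to differ. They held 0 genes of the radial glial, cell cycle and upper-layer lists, 2 of 8 deep-layer, 3 of 4 endothelial and 4 of 4 mesenchymal genes.

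Progenitor genes stood on the higher side. Of 10 radial glial genes 9 were past 2-fold higher, with a list median of 2.59. *Aldoc*, which encodes the glycolytic enzyme aldolase C, was counted at 17539.6 CPM in *Eomes*+ cells and 1781 CPM in the others, a log2 ratio of 3.30 (3.22 to 3.38), with 3.24 and 3.36 in the hemispheres. *Hopx*, a homeodomain gene of radial glia, gave 2.95 (2.85 to 3.05), the secreted glycoprotein gene *Mfge8* 2.60 (2.54 to 2.65) and the progenitor transcription factor gene *Sox9* 2.58 (2.53 to 2.63). The 1 radial glial gene below 2-fold was *Egfr*, the epidermal growth factor receptor gene, at 0.09 (−0.17 to 0.34).

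Of 2 cell cycle genes 1 was past 2-fold higher. *Top2a*, the topoisomerase gene of cells in S to M phase, was at 68358 CPM against 11154 CPM, a log2 ratio of 2.62 (2.58 to 2.65), and 1.29 when the comparison cells were matched for depth in the tissue. *Ccnd2*, which encodes cyclin D2, was at 89451 CPM against 59568 CPM, a log2 ratio of 0.59, below 2-fold. Its ratio in the control section was −0.31 (−0.49 to −0.14), so its direction was not shared by the sections. At matched depth the ratios were 0.88 and 0.06. The other genes among the 10 highest ratios were *Gem* (3.12), which encodes a small GTP-binding protein, *Creb5* (2.87), *Aldh1l1* (2.72), *Chd7* (2.58), a chromatin remodeller gene, and *Sox6* (2.47).

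Neuronal genes split. Of 8 upper-layer or immature projection neuron genes 2 were past 2-fold higher, *Unc5d* (1.14; 1.03 to 1.24), a netrin receptor gene of newborn upper-layer neurons, and *Pou3f2*, a POU transcription factor gene, which lay at the threshold with 42191 CPM against 21065 CPM. 2 were past 2-fold lower, among them *Rorb* (−1.70), and the list median was −0.30. Of 8 deep-layer genes 6 were past 2-fold lower and 0 higher, with a median of −2.29. *Tbr1* was counted at 12070.4 CPM against 41083 CPM, a log2 ratio of −1.77 with −1.76 and −1.78 in the hemispheres. *Slc17a7*, the vesicular glutamate transporter gene of mature cortical neurons, gave −3.29. Its relative *Slc17a6*, used by many immature glutamatergic neurons, was higher by 1.38 (1.29 to 1.48).

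The 10 lowest ratios were those of *Dcn* (−6.25), the decorin gene of meningeal fibroblasts, *Cdh13* (−5.06), *Gabra5* (−4.72), a GABA receptor subunit gene, *Htr2a* (−4.57), *Sphkap* (−4.48), *Drd1*, *Mc4r* (−4.36), *Ntsr1* (−4.34), *Tnr* and *Npy*. At least *Dcn*, *Drd1*, *Mc4r* and *Ntsr1* were among the genes that had to differ, so this ranking is no support by itself. *Osr1* (−3.41), *Thbs2* (−3.42) and *Col14a1* (−1.31), the other mesenchymal genes compared, and the endothelial genes, from −2.15 (*Aplnr*) to −1.17 (*Adgrf5*), were lower as well, but most of them were among those that had to differ. *Cldn5*, the claudin gene of endothelial cells, was not, and stood at 1424 CPM against 6099 CPM (−2.10). The 3 microglial genes had ratios from −1.16 to −0.90.

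Among 8 genes of the GABAergic list, 3 were past 2-fold higher and 0 lower, with a median of −0.43. Over all genes compared 18.1% were higher and 42.2% lower, with a median of −0.74. Both groups had been limited in *Gad1* and *Gad2*. The 3 were *Sox6* (2.47), *Sp8* (1.92) and *Prox1* (1.78), transcription factor genes that cortical progenitors also express. *Lhx6* (−0.89) and *Slc32a1* (−0.72), the GABA transporter gene, were below 2-fold and near the median of all genes compared. *Bcan* (1.93), which encodes brevican, was the 1 oligodendrocyte precursor gene past 2-fold higher, and *Pdgfra* (−3.77), which meningeal cells also express, the 1 past 2-fold lower. *Pdgfra* was among the genes that had to differ.

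The higher ratios were smaller at matched depth. With the comparison cells weighted to the same depth bins, 23 genes (9.24%) were past 2-fold higher and 91 (36.5%) lower, with a median of −0.54. The hemispheres gave 39 and 15 genes on the higher side, so this count depended on the hemisphere. Of the radial glial genes 8 of 10 were still past 2-fold higher, with a median of 1.23. Other lists lost calls on the higher side. Of the upper-layer or immature neuron genes 0 of 8 were then past 2-fold higher, with *Unc5d* at 0.19 and *Pou3f2* at 0.42, and of the GABAergic list 1 of 8. *Slc17a6* was at 0.80, below 2-fold. Of 5 oligodendrocyte precursor genes 0 were higher and 4 lower. The 5 highest were *Gem* (1.95), *Aldoc* (1.71), *Creb5* (1.46), *Sema5a* (1.43), a semaphorin gene, and *Hopx* (1.40). *Hopx* gave 1.98 in 1 hemisphere and 0.93 in the other. *Sstr2* was at 0.74, with 0.71 and 0.79. *Tbr1* stayed at −1.72. The matching was by depth only and not by position along the cortex. The matched cells thus include lateral pallium, where *Eomes*+ cells were few. How much of these ratios, that of *Tbr1* among them, came from position along the cortex was not tested. This limit holds for every comparison at matched depth given here.

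Cells with genes taken here to mark earlier and later steps of the lineage then served as comparisons. The earlier ones were 1097 pallial KO cells with at least 3 transcripts of the radial glial genes *Hopx* and *Aldoc* and no *Eomes*, with a median distance of 91.4 µm (88.3 to 96.2) from the ventricular edge. The later ones were 3370 cells with at least 3 transcripts of *Unc5d* and *Sstr2*, no *Eomes* and fewer than 3 of *Hopx* and *Aldoc*, at 188 µm (185 to 193). *Sstr2* was also the 1 other intermediate progenitor gene counted. The cells taken as later may thus include intermediate progenitors whose *Eomes* was missed, which was not tested. The *Eomes*+ cells, at 119 µm, lay between them. On the relative scale they were apart from the *Hopx* and *Aldoc* cells in 1 hemisphere, at 0.80 and 0.85. In the other, at 0.742 (0.728 to 0.757) and 0.746 (0.723 to 0.772), they could not be told apart. In the control section the *Eomes*+ interval, 119 to 166 µm, overlapped those of both populations. In 1 control hemisphere the 22 *Eomes*+ cells lay at 96.3 µm, against 155 µm for *Hopx* and *Aldoc* cells. The 4 genes that chose these populations are no finding against the population they chose.

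Against the *Hopx* and *Aldoc* cells, 36 of 249 genes (14.5%) were past 2-fold higher in *Eomes*+ cells and 31 (12.4%) lower, with a median of −0.11. In 1 of the groups 30 of the 249 genes were under 169 CPM, the lowest mean that passed, and so had to differ. Of 8 upper-layer or immature neuron genes 7 were past 2-fold higher and 0 lower, with a median of 2.01. Of 6 deep-layer genes 1 was past 2-fold higher and 0 lower, with a median of 0.23 and a range from −0.80 (*Nr4a2*) to 1.77. The 1 was *Tbr1*, at 12070.4 CPM against 3546 CPM, a log2 ratio of 1.77 (1.59 to 1.95). Within 240 µm of the ventricular edge *Tbr1* was at 17519 CPM (15506 to 19721) in cells with at least 10 microglial transcripts. In those with at least 10 endothelial transcripts it was at 11545 CPM (10632 to 12515). The *Eomes*+ level was below the first and within the interval of the second. How much of it came from neighbours was not tested. Among the 5 highest were *Nos1* (3.20), the neuronal nitric oxide synthase gene, *Slc17a6* (2.42), *Epha3* (2.26), an ephrin receptor gene, and *Pou3f1* (2.25). *Sstr2* was higher by 2.18 (2.04 to 2.32), with 1.97 and 2.40 in the hemispheres.

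Of the 8 radial glial genes that had no part in choosing the *Hopx* and *Aldoc* cells, 0 were past 2-fold in either direction, with a median of −0.68. Choosing cells on *Hopx* and *Aldoc* can raise such genes in them as well. *Sox9* stood at −0.91 (−0.98 to −0.85) and *Mfge8* at −0.70, while *Lhx2*, a LIM homeobox gene of cortical progenitors, was at 0.16 (−0.02 to 0.35). *Hopx*, past 2-fold at −1.31, had chosen the comparison cells. *Top2a* was at −0.52 and *Ccnd2* at −0.01 (−0.05 to 0.03). The 5 lowest were *Htr2c* (−3.86; −5.29 to −2.58), *Grm3* (−2.47; −2.65 to −2.30), a metabotropic glutamate receptor gene, *Trhr*, *Rspo1* and *Cdh13*. *Htr2c* had 10 transcripts in *Eomes*+ cells and gave −1.40 and −4.65 in the hemispheres. At that level it was among the genes that had to differ. Of 4 oligodendrocyte precursor genes 3 were past 2-fold lower, *Olig1* (−1.81; −2.20 to −1.43), *Olig2* (−1.59) and *Bcan* (−1.40).

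Against the *Unc5d* and *Sstr2* cells, 53 of 249 genes (21.3%) were past 2-fold higher and 78 (31.3%) lower, with a median of −0.39. In 1 of the groups 64 of the 249 genes were under 228 CPM, the lowest mean that passed, and so had to differ. Of the 8 radial glial genes other than *Hopx* and *Aldoc* all 8 were past 2-fold higher, with a median of 3.44 and the lowest, *Lhx2*, at the threshold (1.01). 3 of them, *Aldh1l1*, *Fgfr3* and *Ednrb*, were too low in the comparison cells to have entered otherwise and had to differ. Both cell cycle genes were past 2-fold higher, with *Top2a* at 2.75 (2.69 to 2.81) and *Ccnd2* at 1.58 (1.54 to 1.62). These cells had been chosen with few *Hopx* and *Aldoc* transcripts, a limit that *Eomes*+ cells did not have. *Hopx* and *Aldoc*, at 4.70 and 4.61, were therefore left out of the radial glial count. The limit can also lower other genes found in the same cells, and *Sox9* was found in most *Hopx* and *Aldoc* cells. The radial glial count is therefore no support by itself. *Ccdc80* (4.81), a secreted matrix protein gene, *Mfge8* (4.78; 4.62 to 4.95) and *Ednrb* (3.97), an endothelin receptor gene, were among the 5 highest. The limit can act on them in the same way. On the lower side were 3 upper-layer genes, among them *Cux2* (−1.50) and *Cd24a* (−1.24). Of 7 deep-layer genes 3 were past 2-fold lower, *Slc17a7* (−3.21), *Bcl11b* (−2.12) and *Tbr1* (−1.75), and 1 higher, *Foxp2* (1.02), at the threshold on 137 transcripts. *Foxp2* was also among the genes that had to differ. *Fezf2* was at 0.29, with 1.12 and −0.20 in the hemispheres, and the list median was −0.97. *Slc17a6* was near equal, at 0.16 (0.05 to 0.28). The 5 lowest were *Crym* (−4.87), *Epha6* (−4.46), *Sphkap* (−4.37), *Gabra5* (−4.35) and *Rasgrf2* (−4.08), each with at most 43 transcripts in *Eomes*+ cells. At that level they too were among the genes that had to differ.

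**Figure D3:**
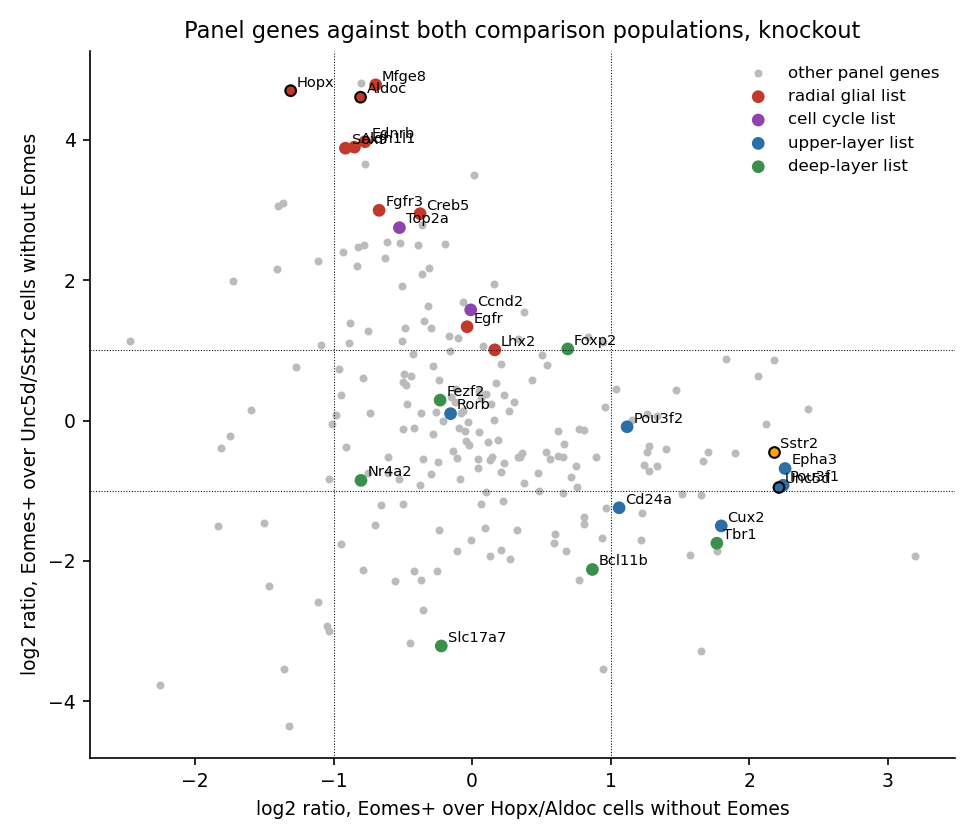
Log2 ratios of the panel genes compared, with 1 gene left out, pallial *Eomes*+ cells over *Hopx* and *Aldoc* cells without *Eomes* (x) and over *Unc5d* and *Sstr2* cells without *Eomes* (y), in the KO section. Colours mark gene lists, black rims the 4 genes that chose the comparison cells, and dotted lines a 2-fold difference. Most radial glial genes lie at the upper left, with *Mfge8* at −0.70 and 4.78. *Tbr1* lies at the lower right, at 1.77 and −1.75, and the other deep-layer genes lie below 2-fold on x.

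Shares of cells with a transcript were compared as well. Each cell was thinned to 50 transcripts, which left out 144 of the 2216 *Eomes*+ cells. *Sox9* was then found in 60.3% of *Eomes*+ cells, 89.2% of *Hopx* and *Aldoc* cells, 9.31% of *Unc5d* and *Sstr2* cells and 15.0% of microglial marker cells. *Tbr1* was found in 33.6%, 9.52%, 76.0% and 27.9% of them, so its share in *Eomes*+ cells was near that of the microglial marker cells. *Slc17a6* was found in 23.5% (21.6 to 25.3) of *Eomes*+ cells, 4.96% of *Hopx* and *Aldoc* cells, 27.4% (25.9 to 29.0) of *Unc5d* and *Sstr2* cells and 5.11% of microglial marker cells. Its share was thus lower in *Eomes*+ than in *Unc5d* and *Sstr2* cells, while its CPM was not, and no order is read from it. *Unc5d* was found in 20.4% of *Eomes*+ and 3.70% of microglial marker cells, and *Top2a* in 82.3% and 42.2%. Without thinning, the shares in *Eomes*+ cells were 75.1% for *Sox9*, 46.9% for *Tbr1* and 90.4% for *Top2a*, and those in microglial marker cells 26.6%, 38.9% and 57.9%. The microglial marker cells here were the 606 with fewer than 2 *Gad1* and *Gad2* transcripts, as in the other populations. Median depths were 123 transcripts in *Eomes*+ cells and 140.0 in these.

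*Sox9* and *Tbr1* were found in the same thinned *Eomes*+ cell less often than their separate shares would give, in 12.2% (10.8 to 13.7) of cells against a product of 20.3%. *Sox9* and *Sstr2* shared 30.7% (28.7 to 32.7) against 36.2%, and *Mfge8* and *Unc5d* 6.61% (5.58 to 7.77) against 11.5%. *Sox9* and *Top2a* shared 53.9% (51.7 to 56.0) against 49.6%. Thinning to a fixed total itself makes genes compete for places, so these are descriptions and not associations.

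Gene levels in *Eomes*+ cells differed with position. Between the cells within 60 µm of the ventricular edge (299 cells) and those at 180 to 240 µm (332 cells), 41 of 247 genes (16.6%) were past 2-fold higher in the outer cells and 70 (28.3%) lower. Of 10 radial glial genes 7 were lower and 0 higher outside, with a median of −1.65. Of 8 upper-layer or immature neuron genes 4 were higher and 1, *Rorb*, lower, and of 7 deep-layer genes 3 were higher and 0 lower. Markers of other cell types were also lower in the outer cells: 4 of 5 oligodendrocyte precursor genes (median −2.31), 2 of 2 mural (−3.56), 3 of 3 endothelial (−1.29) and 3 of 3 microglial genes (−1.17). Genes low in 1 zone could enter through the other, so these counts are no support by themselves, and the part of such cells in the differences between zones was not tested.

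The genes followed several patterns across the band. *Aldh1l1*, an astroglial and radial glial enzyme gene, was counted at 6106 CPM within 60 µm, 2903 CPM at 60 to 120 µm, 855 CPM at 120 to 180 µm and 212 CPM at 180 to 240 µm. *Sox9* was at 31792, 38624, 28852 and 12612 CPM in the same zones, highest at 60 to 120 µm. *Hopx* was at 5737 (5066 to 6472), 10153 (9567 to 10766), 12232 (11520 to 12976) and 5988 CPM (5341 to 6692), so it was highest in the middle of the band and not at the ventricle. Both hemispheres had this *Hopx* maximum at 120 to 180 µm, at 13260.4 and 11116 CPM.

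*Sstr2*, the 1 other intermediate progenitor gene counted, went the other way. It was at 17841, 19579.7, 28041 and 34660.0 CPM from the inner to the outer of these zones, and at 33136 and 36248 CPM in the hemispheres at 180 to 240 µm. *Slc17a6* (3912, 2931, 8032 and 13306 CPM) and *Unc5d* (2803, 2677, 6177 and 10359.5 CPM) were highest in the same outer zone. *Tbr1* had its lowest level, 5907 CPM, at 60 to 120 µm, between 11017 CPM within 60 µm and 22587 CPM at 180 to 240 µm.

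*Cd24a* and *Nrp1* were highest farther out, in the 81 cells at 240 to 300 µm. *Nrp1*, the semaphorin receptor gene neuropilin 1, which was chosen after its values were seen, was at 2347 CPM within 60 µm and 2423 CPM at 60 to 120 µm. It was at 7532 CPM at 120 to 180 µm, 22317 CPM at 180 to 240 µm and 36468 CPM at 240 to 300 µm. *Cd24a* was at 17363, 14372, 23142, 43036 and 56556 CPM in these 5 zones. *Top2a* was at 86249 CPM nearest the ventricle and 45732 CPM at 180 to 240 µm, and was 60728 CPM (56556 to 65126) at 240 to 300 µm.

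Levels in cells with no *Eomes* also differed between the zones, with gradients that matched those of *Eomes*+ cells for some genes and not for others. For *Sox9* they were at 22669.5 CPM within 60 µm and 2519 CPM at 180 to 240 µm, below the *Eomes*+ cells in both. For *Top2a* they were at 47330.1 and 8753 CPM, below the *Eomes*+ cells in both. For *Tbr1* they were between 35756 and 43630.4 CPM in all zones within 300 µm, nearly level and above the *Eomes*+ cells throughout. Laterally the edge borders the subpallium, so the inner zones also hold lateral pallium. The levels in cells with no *Eomes* are thus not those of the ventricular zone alone. For *Nrp1* they were at 24695 CPM at 180 to 240 µm, close to the 22317 CPM of *Eomes*+ cells there. How far the gradients within *Eomes*+ cells were those of the surrounding tissue was not tested.

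**Figure D4:**
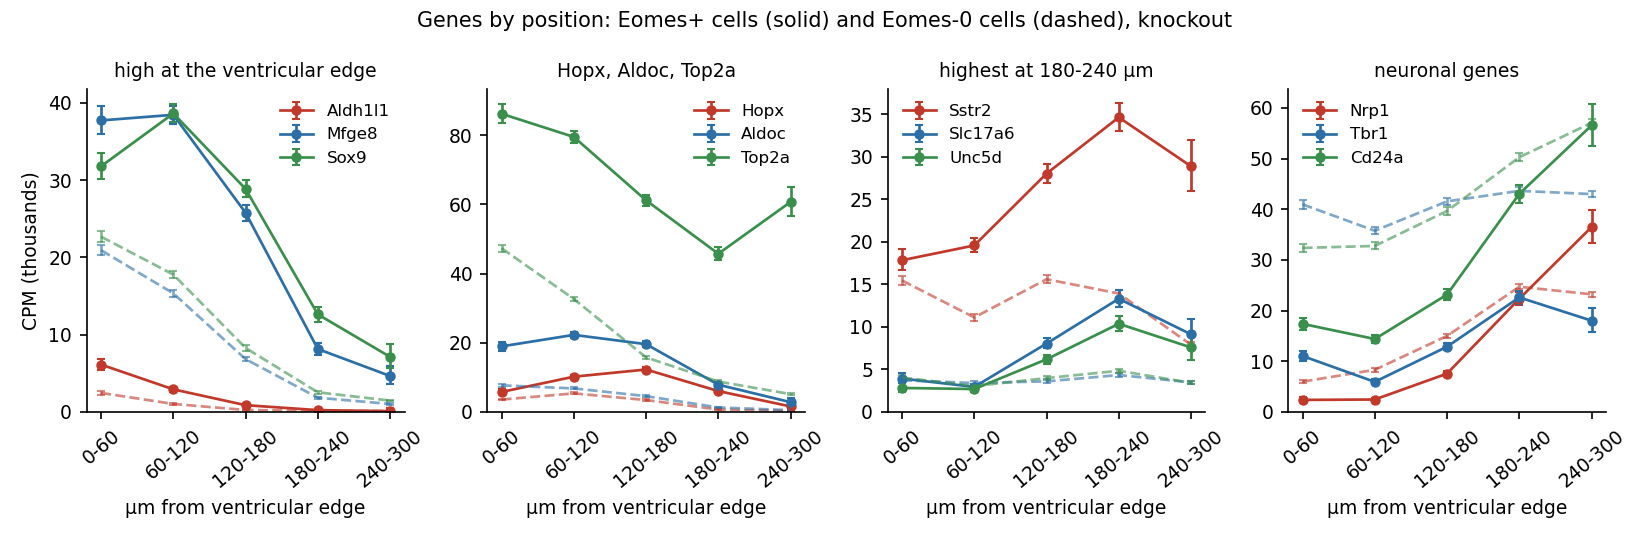
Levels of 12 genes in pallial *Eomes*+ cells (solid lines) and in pallial cells with no *Eomes* (dashed lines) of the KO section, in CPM divided by 1000, by distance from the ventricular edge in µm. Error bars are exact Poisson 95% intervals. *Aldh1l1* was highest at the ventricular edge, *Hopx* at 120 to 180 µm, *Sstr2* at 180 to 240 µm, and *Nrp1* and *Cd24a* at 240 to 300 µm. Laterally the edge borders the subpallium.

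Single decoded molecules, whether or not they lay in a segmented cell, gave a check that does not need the cell borders. In the KO pallial region 13273 *Eomes* molecules lay at a median of 123 µm (121 to 124) from the ventricular edge, and 56.0% of them were in *Eomes*+ cells. Medians ran outward from *Aldh1l1* (67.5 µm), *Mfge8* (97.2 µm), *Sox9* (98.1 µm), *Aldoc* (105 µm), *Top2a* (106 µm) and *Hopx* (113 µm) through *Eomes* to *Sstr2* (159 µm), *Unc5d* (193 µm), *Slc17a6* (199 µm), *Igfbpl1* (214 µm), *Cux2* (242 µm), *Nrp1* (247 µm), *Tbr1* (286 µm) and *Cd24a* (290.0 µm). *Eomes* molecules thus lay between those of the radial glial genes and that of *Sstr2*.

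The control section had a similar series from 1253 *Eomes* molecules, whose median was 139 µm (134 to 145). *Aldh1l1* lay at 70.9 µm, *Sox9* at 108 µm, *Mfge8* at 110 µm, *Top2a* at 118 µm, *Hopx* at 118 µm, *Aldoc* at 120 µm, *Sstr2* at 165 µm, *Slc17a6* at 205 µm, *Unc5d* at 209 µm and *Tbr1* at 290.4 µm. *Eomes* again lay outside every radial glial and cell cycle gene of this series except *Ccnd2*, and inside *Sstr2*. *Ccnd2*, which is also high in the cortical plate, had medians of 377 µm in the control and 363 µm in the KO section.

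Levels also followed the number of *Eomes* transcripts per cell. KO pallial cells were put in classes of 0, 1, 2, 3 to 4, 5 to 9 and at least 10 *Eomes* transcripts, with 26353, 2471, 1012, 799, 368 and 37 cells. Their median distances from the ventricular edge were 311, 143, 128, 117, 107 and 94.4 µm. *Aldoc* was at 1781, 10774, 15489, 17431, 20759.9 and 23179 CPM in these classes. *Tbr1* was at 41083, 22243, 13786, 11383, 10495 and 8681 CPM, so it was lower with more *Eomes*, although the intervals of neighbouring classes from 3 transcripts on overlap.

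*Sox9* and *Sstr2* differed mostly between 0 and 2 *Eomes* transcripts and little above. *Sox9* was at 4816, 20472 and 27193 CPM in the first 3 classes and between 28638 and 30439.7 CPM in the others. *Sstr2* was at 6537, 18254 and 24582 CPM and then between 24392 and 27474 CPM. *Top2a* was at 11154, 50185 and 68825 CPM, then at 71074, 60941 (59057 to 62869) and 78844 CPM (73723 to 84227), with no single direction above 2 transcripts. *Unc5d* was highest at 2 transcripts, with 6215 CPM, and lower on either side, at 2370.4 CPM with no *Eomes* and 3132 CPM in cells with at least 10. *Nrp1* was at 13060 CPM with 2 transcripts and 3586 CPM with 5 to 9, and *Cd24a* at 28454 and 18913 CPM.

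Between cells with at least 5 *Eomes* transcripts and cells with 1, only 5 of 249 genes (2.01%) were past 2-fold higher and 73 (29.3%) were lower. Among cells at relative depths over 2/3 the lower count was 40. The 5 were *Synpr* (1.51), *Trpc4* (1.26), *Cacng5* (1.21), *Gem* (1.04) and *Onecut2* (1.01), of which all but *Gem* were named after their values were seen. *Synpr* was at 446 CPM on 34 transcripts against 157 CPM, and *Dcn*, the lowest ratio, at 39.4 CPM on 3 transcripts against 2402 CPM. Genes low in 1 class could enter through the other, so these calls are no support by themselves. Cell size moved with the classes: the median volume was 772 µm³ with no *Eomes*, 850.2 µm³ with 2, 1308 µm³ with 5 to 9 and 2069 µm³ with at least 10. Median transcripts per cell were 96, 105, 165 and 295 in the same classes. The part of merged cells in the highest classes was not tested.

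**Figure D5:**
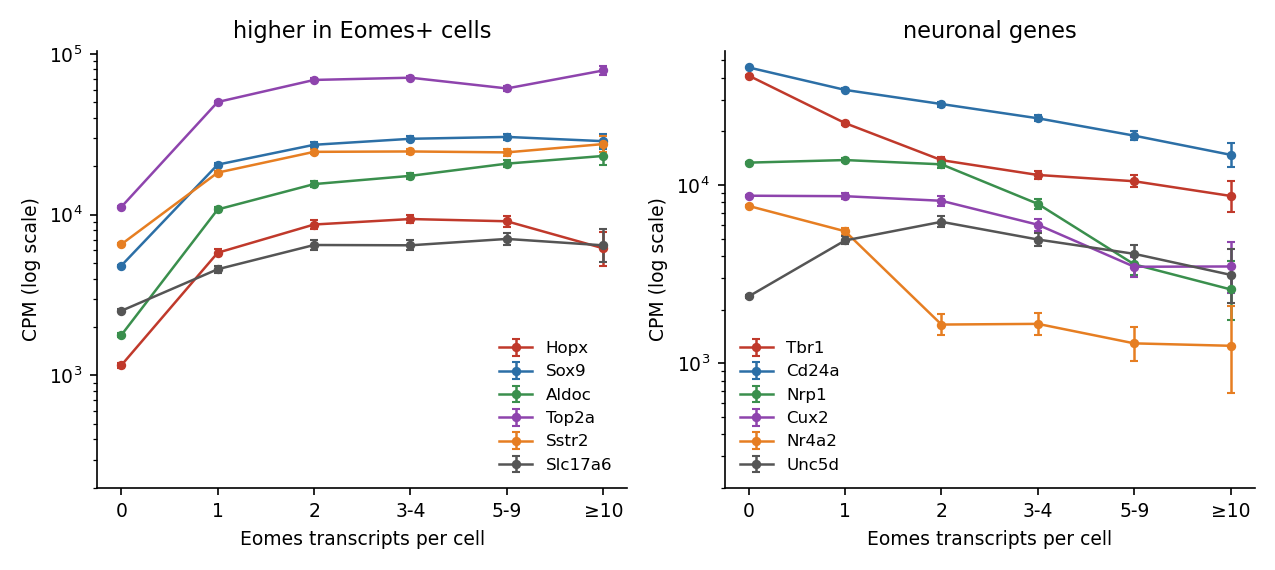
CPM on a log scale of 12 genes in KO pallial cells by number of *Eomes* transcripts per cell. Error bars are exact Poisson 95% intervals. *Aldoc* ran from 1781 to 23179 CPM, *Sox9* and *Sstr2* differed little from 2 transcripts on, and *Tbr1* ran from 41083 to 8681 CPM, with overlapping intervals from 3 transcripts on.

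*Eomes*+ cells as a whole were larger than other pallial cells and had a similar transcript density. Their median volume was 970 µm³ in the KO section, against 772 µm³ for cells with no *Eomes*, 767 µm³ for *Hopx* and *Aldoc* cells and 908 µm³ for *Unc5d* and *Sstr2* cells. They held a median of 124.0 transcripts per 1000 µm³, against 127, 130 and 121. A rule on counts favours large cells, so size is not independent of it.

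The 64 pallial *Eomes*+ cells of the control section held few transcripts, and their values are given side by side only. *Top2a* was at 53249 CPM (44392 to 63357; 127 transcripts) against 9446 CPM in control pallial cells with no *Eomes*, a log2 ratio of 2.49 (2.20 to 2.78). *Sox9* was at 41929 CPM (34115 to 50997), a ratio of 2.13 (1.79 to 2.45), *Sstr2* at 28931 CPM (22509.9 to 36614), a ratio of 2.55 (2.14 to 2.94), and *Aldoc* at 2.89 (2.39 to 3.36). *Tbr1* was at −1.33 (−1.87 to −0.84). *Hopx* rested on 12 transcripts, with a ratio of 2.13 (1.07 to 3.04), and *Unc5d* on 4, with 0.85 (−1.14 to 2.32).

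In the control section 56 of 197 genes (28.4%) were past 2-fold higher and 47 (23.9%) lower against cells with no *Eomes*. At matched depth 34 of 199 (17.1%) were higher and 43 (21.6%) lower. Of the radial glial list 9 of 10 were past 2-fold higher and 0 lower without matching, with a median of 2.01 against 0.02 over all genes compared. At matched depth 3 of 10 were past 2-fold higher and 0 lower, with a median of 0.96 against 0.04. Of the 34 named genes that were past 2-fold in the KO section and had a value in the control, 33 had the same sign. Sizes differed more: of 49 named genes with a value in the control, 6 had a ratio there within the counting interval of the KO ratio, an interval that leaves out the control's own counting error. Of the 34, 8 had at least 20 transcripts in control *Eomes*+ cells, and all 8 had the same sign. Signs were not counted over all genes compared, so these counts of named genes have no background beside them.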

How the data were processed

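Spatial expression had been measured with the MERSCOPE instrument and the Vizgen Pan Neuro panel in 1 control and 1 *Dnmt1* KO section. The study's methods state that the instrument decoded the molecules and segmented the cells. The authors deposited raw counts of decoded molecules per cell and gene, not normalized, together with cell positions and volumes and a list of single molecules. The deposited stain intensity per cell (DAPI, PolyT) was not normalized and is not reported here. The segmentation model is not given in the sources used here. Transcripts of a neighbouring cell can be assigned to a cell across its drawn border, which raises levels of genes that the cell does not express.

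Tables were analysed with Python 3.11.15, numpy 2.4.6, pandas 2.3.3, scipy 1.17.1 and scikit-image 0.26.0, and plots drawn with matplotlib 3.10.9. Blank barcodes were left out of all totals, and cells needed 20 panel transcripts. No doublet caller was run. The pallial region was drawn on a 25 µm grid smoothed with an SD of 50 µm, as bins where 5 pallial genes (*Tbr1*, *Fezf2*, *Slc17a7*, *Unc5d* and *Lhx2*) outnumbered 12 subpallial ones (over 50% of the sum) and both sets held at least 1.5% of all transcripts, with at least 2 cells per bin and parts of at least 0.8 mm². The marker, cell and part minimums and the mirror line that divides the hemispheres were chosen once the sections had been looked at. Distances were measured to the centres of grid bins beyond the inner edge, so 0 µm lies just outside the tissue, and laterally the inner edge borders the subpallium. Relative depth divides the distance from the outer edge by the sum of the distances from both edges.

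Counts were summed over cells and scaled to CPM, with *Eomes*, *Gad1* and *Gad2* left out of counts and totals, except in the comparison with microglial and endothelial marker cells, where *Eomes* itself was given per 1000000 panel transcripts of any gene. Log2 ratios have no pseudocount. A ratio's interval sets the low end of 1 group's interval against the high end of the other's, and so covers more than 95%. Intervals of medians are from order statistics. A gene was compared where its mean CPM over both groups was at or above the panel median and both groups had a count, and a gene was counted at 2-fold. The scripts were tested on simulated data. Named genes were the members of marker lists, the 10 highest and 10 lowest ratios over cells with no *Eomes*, and the 5 highest and 5 lowest in the other comparisons. 1 gene of the lists is not reported here. The members, lists and comparisons were chosen with earlier results of these data known. Alternatives were other minimums of transcripts, *Eomes*, *Gad1* and *Gad2*, other outlines, 1 hemisphere, thinning, all genes with at least 20 counts, dropping the largest 1% of cells by volume and, added after the data were seen, leaving out microglial and endothelial marker cells.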

Additional observations from a re-analysis of the deposited data

How the results depend on the processing

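No paired analysis was possible because each group held 1 section. Both sections' shares of cells that met the rule depended on the minimum of *Eomes* transcripts: 5.50% of KO and 1.43% of control cells at 1, 2.34% and 0.121% at 2, and 1.27% and 0.0127% at 3. The log2 ratio among pallial cells was 2.10, 4.10 and 6.41 at these minimums. The KO share was 2.56% with a minimum of 50 transcripts per cell, 2.10% with no *Gad1* or *Gad2* transcript allowed and 0.526% when thinned to the control's mean transcripts per cell, where the log2 ratio was 2.01. The share of KO *Eomes*+ cells inside the pallial region was 96.0% with the outline at 40 percent, 91.3% at 60 percent and 94.8% with no *Gad1* or *Gad2* transcript. Median relative depth was 0.79 at 3 *Eomes* transcripts and 0.74 and 0.80 in the hemispheres. The share of *Eomes*+ cells among nearest cells was 23.9% at 3 transcripts, where *Eomes*+ cells are fewer.

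Of the gene counts, the depth-matched higher count of 23 was 39 and 15 in the hemispheres, and the cause was not tested. With all genes of at least 20 counts, which tests more genes, the lower counts were 195 against cells with no *Eomes*, 168 depth-matched, 49 against *Hopx* and *Aldoc* cells and 141 against *Unc5d* and *Sstr2* cells. The count of 73 genes lower at 5 or more *Eomes* transcripts was 40 at relative depths over 2/3. Leaving out microglial and endothelial marker cells or the largest cells kept every gene count within 1.5 times. Of 74 named genes, 54 moved beyond their counting interval with depth matching and 26 with thinning, and 0 of those that were past 2-fold changed sign. In the control section 6 of 49 stayed within the KO interval and 42 moved beyond it. The 1 other, *Adgrf5*, was past 2-fold in the KO section and changed sign, at 0.64 on 1 transcript. Low control depth limits every statement about its 64 pallial cells.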
